A study of Drosophila sechellia and Drosophila melanogaster and Drosophila simulans with 18 samples.

Results

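The genes described here encode the proteins of the mitochondrial ribosome, and they were taken as every gene whose symbol, with its species prefix removed, begins with mRpL or mRpS followed by a digit. By this rule 73 of the 17649 genes in the *D. melanogaster* table were members, 47 named for the large subunit (mRpL) and 26 for the small subunit (mRpS). Such a symbol was carried by 1 of the 15372 genes listed for *D. simulans* and by 0 of the 17273 listed for *D. sechellia*, because most genes of those tables are listed under numbers and not under names. RNA was sequenced from whole adult females fed for 24 h on food with 0.23% hexanoic acid (HA), a medium-chain fatty acid of the fruit on which *D. sechellia* lives, or on the same instant food without it (control). The flies were 0 to 3 days posteclosion, had been reared on cornmeal medium at 20 °C with 16 h of light and 8 h of dark, and came from 1 strain per species, 14021-0231.36 of *D. melanogaster*, 14021-0251.195 of *D. simulans* and 14021-0428.25 of *D. sechellia*. Each of the 6 groups had 3 libraries of 10 pooled flies, 18 libraries in all.

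Mitochondria keep a small genome of their own and translate its messages with their own ribosomes, which are built from RNAs of that genome and from proteins that are encoded in the nucleus, made in the cytosol and imported. In flies as in mammals, the proteins made by these ribosomes are core subunits of the respiratory chain and of the ATP synthase, so flight muscle and the growing oocyte, both rich in mitochondria, depend on them. Some mitoribosomal proteins descend from those of bacterial ribosomes, and others have no bacterial counterpart and are found in mitochondria only.

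The level of each gene was an FPKM value, that is the number of fragments scaled to the length of the transcript and to the size of the library, and the files hold 1 such value per food and species, pooled by the authors over the 3 libraries. No value of a single library was at hand, so no level below has an SD, no difference has a test or a replicate check, and the counts behind a value cannot be had from the files. Differences are given as log2((HA FPKM + 0.1)/(control FPKM + 0.1)), positive when the value was higher on HA food, over genes with a mean of at least 1 FPKM, a minimum that all 73 members passed. A gene is counted as past the limit when its value on HA food was at least 25% higher than on control food, or at most 80% of it (a log2 ratio of 0.32 in either direction), a size chosen for description only.

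In *D. melanogaster* the mitoribosomal protein genes were among the more abundant transcripts on both foods. Members ranged between 32.9 and 184.6 FPKM on HA food, with a median of 64.3 FPKM, and between 30.5 and 247.7 FPKM on control food, with a median of 65.1 FPKM. The member with the lowest mean over both foods, *mRpL37*, exceeded 70.4% of all 10427 genes past the minimum, and the member with the highest mean, *mRpL42*, exceeded 94.3% of them. Summed over the 73 genes, the levels came to 5263 FPKM on HA food and 5547 FPKM on control food. The order of the genes was much alike on the 2 foods, with a Spearman's rho across the 73 genes of 0.95, which is given as a description since genes are not replicates and both values of a gene share its length and sequence.

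The ratios of the members centred close to those of all genes. Their median log2 ratio was -0.04, with the middle of the distribution (quartiles) at -0.17 and 0.15, while over all 10427 genes the median was 0.00 with quartiles at -0.21 and 0.16. Of the 73 members 28 were higher on HA food and 45 lower, so that 38.4% were higher, beside 50.4% of all genes tested. Past the limit upwards was 1 member (1.37%), beside 7.39% of all genes, and past it downwards were 7 members (9.59%), beside 16.9% of all genes. All genes were not matched to the members for level, as the lowest mean of a member was 33.5 FPKM. With a minimum of 5 FPKM the shares of all genes were 6.53% upwards and 14.9% downwards. The other 65 members stayed inside the limit, and 30 of the 73 differed by less than 1.1-fold. When the HA values were rescaled so that the summed FPKM of the 2 foods was equal, a step that moves every gene alike, the members' median was 0.01 and that of all genes 0.05, so the members stood 0.04 below all genes on either scale. Under that scaling 37 members (50.7%) were higher on HA food, beside 57.4% of all genes, 5 (6.85%) were past the limit upwards, beside 11.4%, and 4 (5.48%) downwards, beside 13.8%.

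**Figure D1:**
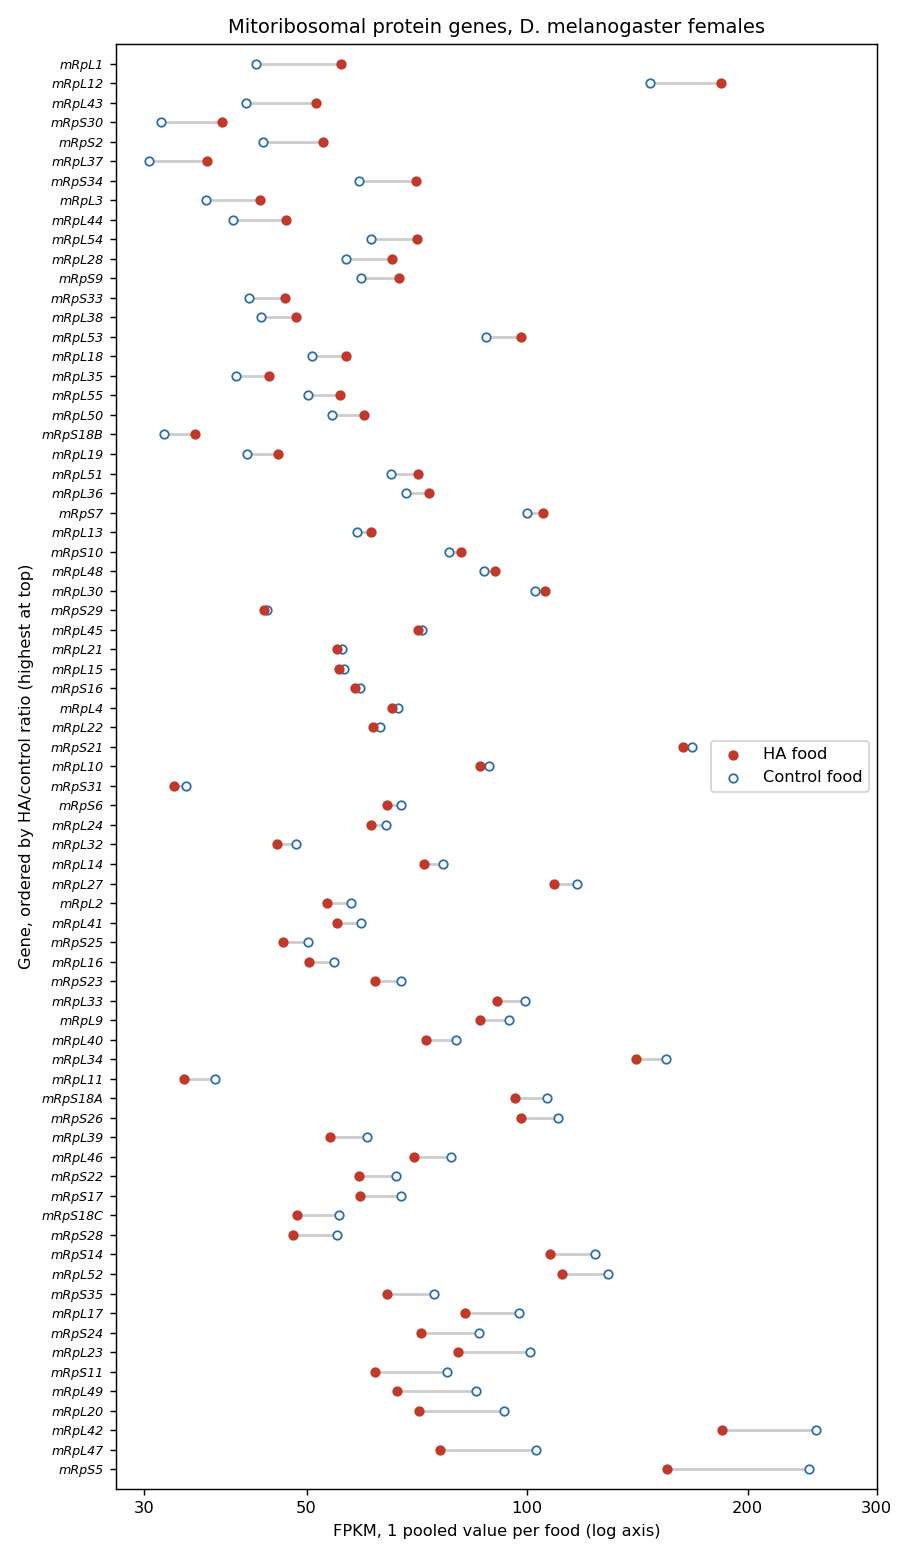
FPKM of each of the 73 mitoribosomal protein genes of *D. melanogaster* (log axis), 1 filled point for HA food and 1 open point for control food, both pooled over 3 libraries and joined by a line, with genes ordered by their ratio. The points of most genes lie close together, and the widest gap is that of *mRpS5*, at 155.4 FPKM on HA food against 242.1 FPKM on control food.

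**Figure D2:**
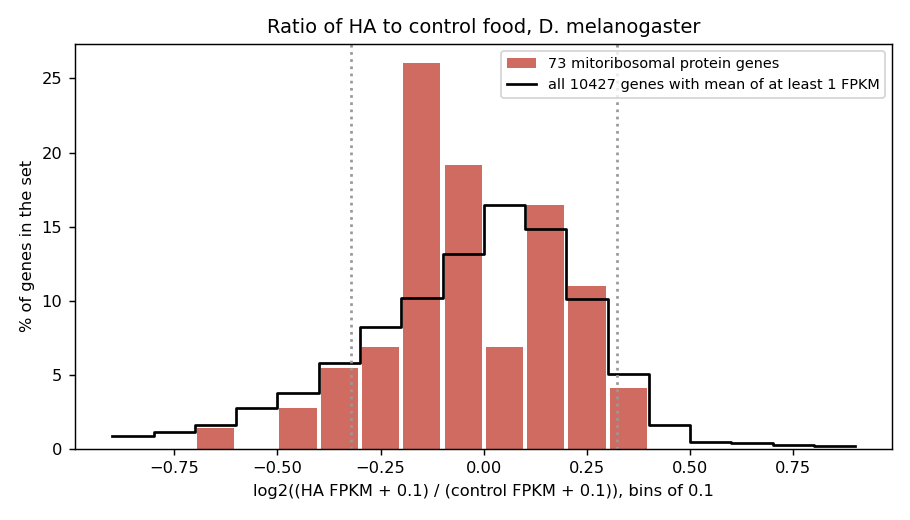
Share of genes (%) in bins of 0.1 of the log2 ratio of HA over control food, as bars for the 73 mitoribosomal protein genes and as a line for all 10427 genes; dotted lines mark the limit at 0.32 in either direction. The members lie between -0.64 and 0.38, whereas 3.28% of all genes fall outside the plotted range.

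The gene with the lowest ratio was *mRpS5*, the counterpart of a bacterial small subunit protein near the channel by which mRNA enters the ribosome. It was listed at 155.4 FPKM on HA food and 242.1 FPKM on control food, a log2 ratio of -0.64 or 0.642 of the control value, and 5.06% of all genes had a lower ratio. It was 1 of the 2 most abundant members, and the only member past a limit of 1.5-fold. The gene lies on chromosome 3L at 24537236 to 24543534 on the plus strand (BDGP6, as for all positions of this species), and shares its locus with no other gene. Its identifier in the table is not in the annotation used here, so its position was found by its symbol, inside the locus that the table gives.

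Next in order came 6 further genes past the limit, 5 of the large subunit and 1 of the small one. *mRpL47*, which stands where bacterial L29 does at the exit of the peptide tunnel, had 75.9 FPKM on HA food and 102.7 FPKM on control food (log2 ratio -0.43). *mRpL23*, a neighbour of that protein at the exit, had 80.4 FPKM on HA food and 100.7 FPKM on control food (-0.33). *mRpL20*, whose bacterial counterpart binds ribosomal RNA early in assembly, had 71.3 FPKM on HA food and 93.1 FPKM on control food (-0.38). These 3 genes, all with a bacterial counterpart, stood at 0.740, 0.798 and 0.766 of their control values. *mRpL42*, a protein without a bacterial counterpart, was the most abundant member, with 184.6 FPKM on HA food and 247.7 FPKM on control food (-0.42). *mRpL49*, likewise found in mitochondria only, had 66.4 FPKM on HA food and 85.1 FPKM on control food (-0.36). *mRpS11*, of the platform of the small subunit, had 61.9 FPKM on HA food and 77.7 FPKM on control food (-0.33). Of the 7 genes, *mRpS5*, *mRpL20*, *mRpL49* and *mRpS11* stand alone at their locus, and the exons of *mRpL47*, *mRpL42* and *mRpL23* share 0.663%, 4.38% and 4.72% of their bases with those of a neighbouring gene.

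The lowest 10 were completed by genes that stayed inside the limit. *mRpS24*, the counterpart of bacterial S3, had 71.7 FPKM on HA food and 86.0 FPKM on control food (log2 ratio -0.26), with 55.3% of its exon bases shared with *TBC1d7*. *mRpL17*, at the peptide exit in bacteria, had 82.2 FPKM on HA food and 97.6 FPKM on control food (-0.25). *mRpS35*, of the small subunit and without a bacterial counterpart, had 64.3 FPKM on HA food and 74.6 FPKM on control food (-0.21). Thus 6 of the lowest 10 were named for the large subunit and 4 for the small one, and 3 of the 10, *mRpL42*, *mRpL49* and *mRpS35*, belong to the proteins found in mitochondria only.

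The gene with the highest ratio was *mRpL1*, whose bacterial counterpart forms the mobile L1 stalk by which spent tRNA leaves the ribosome. It was listed at 55.8 FPKM on HA food and 42.7 FPKM on control food, a log2 ratio of 0.38 or 1.31-fold, and it was the 1 member past the limit upwards. It lies on chromosome 3R at 8301440 to 8302770 on the plus strand, and 6.97% of its exon bases are shared with the gene *nac*. Just short of the limit was *mRpL12*, of the stalk that recruits translation factors, with 183.7 FPKM on HA food and 147.3 FPKM on control food (0.32, 1.247-fold). *mRpL12* shares no exon bases with another gene, and it was the only one of the 5 most abundant members that was higher on HA food.

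The other 8 genes among the highest 10 lay inside the limit. *mRpL43*, of the large subunit and without a bacterial counterpart, had 51.5 FPKM on HA food and 41.4 FPKM on control food (log2 ratio 0.32). *mRpS2*, the counterpart of bacterial S2, had 52.7 FPKM on HA food and 43.6 FPKM on control food (0.27). *mRpL3*, whose bacterial counterpart reaches towards the site of peptide bond formation, had 43.2 FPKM on HA food and 36.4 FPKM on control food (0.25). All 3 were below the median level of the members on both foods.

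The remaining 5 of the highest 10 encode proteins found in mitochondria only. *mRpS30*, which in mammals sits in the large subunit in spite of its name, had 38.3 FPKM on HA food and 31.6 FPKM on control food (log2 ratio 0.28). *mRpL37* had 36.6 FPKM on HA food and 30.5 FPKM on control food (0.26). *mRpS34*, of the small subunit, had 70.5 FPKM on HA food and 59.0 FPKM on control food (0.26). Each of these lay inside the limit. *mRpL44*, which carries a fold of the RNase III family, had 46.9 FPKM on HA food and 39.7 FPKM on control food (0.24). *mRpL54* had 70.7 FPKM on HA food and 61.2 FPKM on control food (0.21). The 53 members between the highest and the lowest 10 lay between -0.21, in *mRpL52*, and 0.21, in *mRpL28*.

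By level, the 5 most abundant members were *mRpL42*, *mRpS5*, *mRpS21*, *mRpL12* and *mRpL34*, and 4 of the 5 were lower on HA food. *mRpS21*, the counterpart of bacterial S21, had 163.4 FPKM on HA food and 168.0 FPKM on control food (log2 ratio -0.04), with 48.0% of its exon bases shared with the gene *CG8870*. *mRpL34* had 140.6 FPKM on HA food and 154.8 FPKM on control food (-0.14), and at 327 nt its transcript was the shortest of all members. The 5 least abundant were *mRpL37*, *mRpS31*, *mRpS18B*, *mRpS30* and *mRpL11*, of which 3 were higher on HA food. *mRpS31*, of the small subunit and found in mitochondria only, had 32.9 FPKM on HA food and 34.2 FPKM on control food (-0.06). *mRpS18B*, 1 of the 3 members with a name from bacterial S18, had 35.3 FPKM on HA food and 31.9 FPKM on control food (0.14). *mRpL11*, at the base of the stalk where translation factors bind, had 34.1 FPKM on HA food and 37.6 FPKM on control food (-0.14). *mRpS18A*, with 96.1 FPKM on HA food and 106.6 FPKM on control food, and *mRpS18C*, with 48.6 FPKM on HA food and 55.4 FPKM on control food, were the other members of that name, so that the level of *mRpS18A* was more than that of *mRpS18B* and *mRpS18C* on both foods.

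Members with lower levels more often had the higher ratio. Of the 12 members with a mean over 100 FPKM, 3 were higher on HA food and 9 lower, with a median log2 ratio of -0.14. Of the 44 members with a mean above 50 and up to 100 FPKM, 13 were higher and 31 lower, with a median of -0.08. Of the 17 members with a mean of up to 50 FPKM, 12 were higher and 5 lower, with a median of 0.16. Across the 73 members the ratio and the mean level had a Spearman's rho of -0.47, and across 9500 protein coding genes one of -0.07. These are descriptions across genes, and the ratio and the mean are made from the same values. Level also went with transcript length, with a rho of -0.40 across the members and -0.35 across the 9500 genes. The ratio moved with length too, as given below, and the part of length in this trend was not tested.

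**Figure D3:**
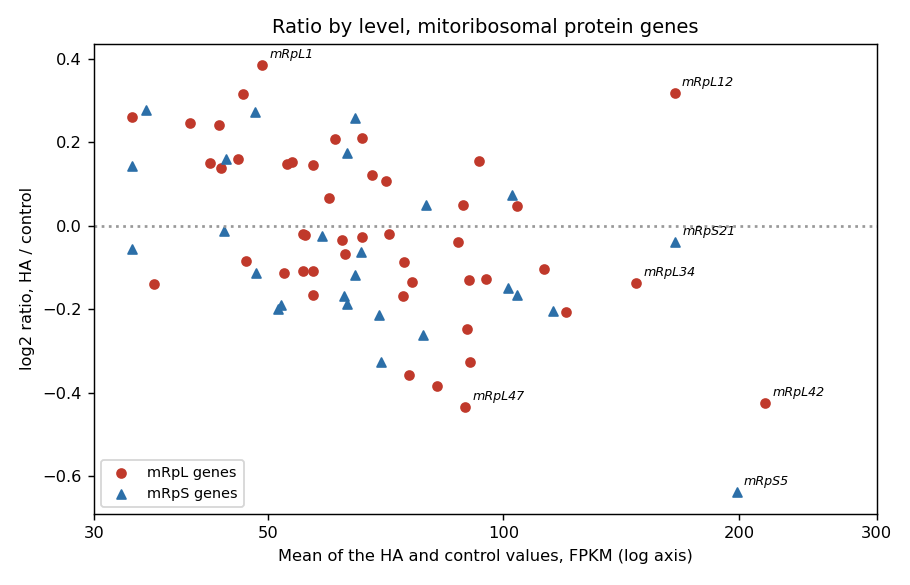
Log2 ratio of HA over control food against the mean of the 2 values (FPKM, log axis) for the 73 mitoribosomal protein genes of *D. melanogaster*, with circles for mRpL and triangles for mRpS genes. Points drop towards the right, and of the 5 most abundant genes only *mRpL12*, at 0.32, lies above a ratio of 0. Relative to protein coding genes of like transcript length, *mRpL12* (0.51), *mRpS21* (0.21) and *mRpL34* (0.11) stood above 0. On that scale *mRpL42* (-0.23) and *mRpS5* (-0.59) stood below it.

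The ratios of the subunits overlapped, with the lowest ratio in an mRpS gene and the highest in an mRpL gene. The 47 mRpL genes had a median log2 ratio of -0.03, between -0.43 and 0.38, and 20 of them were higher on HA food. The 26 mRpS genes had a median of -0.09, between -0.64 and 0.28, and 8 of them were higher. Past the limit were 1 of the 47 mRpL genes upwards and 5 downwards, and 0 of the 26 mRpS genes upwards and 2 downwards. Over all genes 7.39% were past it upwards and 16.9% downwards. Under equal summed FPKM the median was 0.03 in mRpL genes and -0.04 in mRpS genes, beside 0.05 in all genes. Counting *mRpS30* and *mRpS18A* with the large subunit, where they sit in mammals, left the medians at -0.03 and -0.09. No test of this difference was possible.

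Grouped by descent after the names of the human proteins, the 45 members with a bacterial counterpart had a median log2 ratio of -0.06, with 15 higher on HA food and 30 lower. *mRpS18A*, *mRpS18B* and *mRpS18C*, with names from bacterial S18, were all counted among the 45, and by symbol among the mRpS genes. The 28 members found in mitochondria only had a median of -0.02, with 13 higher and 15 lower. The highest median among the 4 combinations was 0.09, in the 18 mRpL genes found in mitochondria only, of which 10 were higher. The lowest was -0.11, in the 16 mRpS genes with a bacterial counterpart, of which 5 were higher.

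The members are spread over the genome, with 12 on chromosome 2L, 12 on 2R, 17 on 3L, 21 on 3R and 11 on X. Their median log2 ratios were 0.06 on 2L, -0.07 on 2R, -0.11 on 3L, -0.04 on 3R and -0.09 on X, where all genes past the minimum had medians of -0.01, 0.00, 0.00, 0.01 and 0.02 in the same order. Of the members 43 overlap other genes at their exons and are listed in the table under a locus that those genes share. These 43 had a median of -0.04, with 16 higher on HA food, and the 30 with a locus of their own had a median of -0.05, with 12 higher. The overlap covers over 10% of the exon bases in 10 members and all of them in *mRpL53*, whose exons lie within those of *AGO1* and *CG33155* together and which had 98.0 FPKM on HA food and 88.0 FPKM on control food. Whether the counting used strand is not given in the sources used here, so reads of such genes may have been shared between neighbours.

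Mitoribosomal protein genes are short, and in this table the ratio moved with transcript length over the whole genome. The median transcript of the members was 740 nt long, beside 1803 nt over 9500 protein coding genes past the minimum, and 54 of the 73 members were shorter than 1000 nt. Protein coding genes of over 500 and up to 750 nt had a median log2 ratio of -0.19 (739 genes), while those of over 5000 nt had one of 0.12 (691 genes), and the Spearman's rho of ratio and length was 0.33 across all 9500 genes and 0.27 across the members. In the same bin of over 500 and up to 750 nt the 32 members had a median of -0.11, and 10 of them were higher on HA food. Among genes of up to 500 nt the medians were 0.03 for 6 members and -0.25 for 333 protein coding genes. In the bin of over 750 and up to 1000 nt the medians were -0.04 for 16 members and -0.13 for 869 protein coding genes. In that of over 1000 and up to 1500 nt they were -0.02 for 18 members and -0.05 for 1781 genes.

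When each ratio was taken relative to the median of protein coding genes in its own length bin, a step added after the data had been seen, 53 of the 73 members (72.6%) lay above it, beside 49.4% of all genes, and the members' median was 0.09. On that scale 11 members (15.1%) were past the limit upwards, beside 8.09% of all genes, and 1 (1.37%), *mRpS5* at -0.59, downwards, beside 14.1%. These shares of all genes are out of 10427, coding or not. Genes without an annotated transcript length have no value on this scale and count there as neither above nor past the limit. Among the members the largest such value was 0.51 for *mRpL12*. The members thus stood slightly below all genes as deposited, and slightly above genes of like length. The part of RNA quality, fragment size or the authors' bias correction in the trend with length was not tested.

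**Figure D4:**
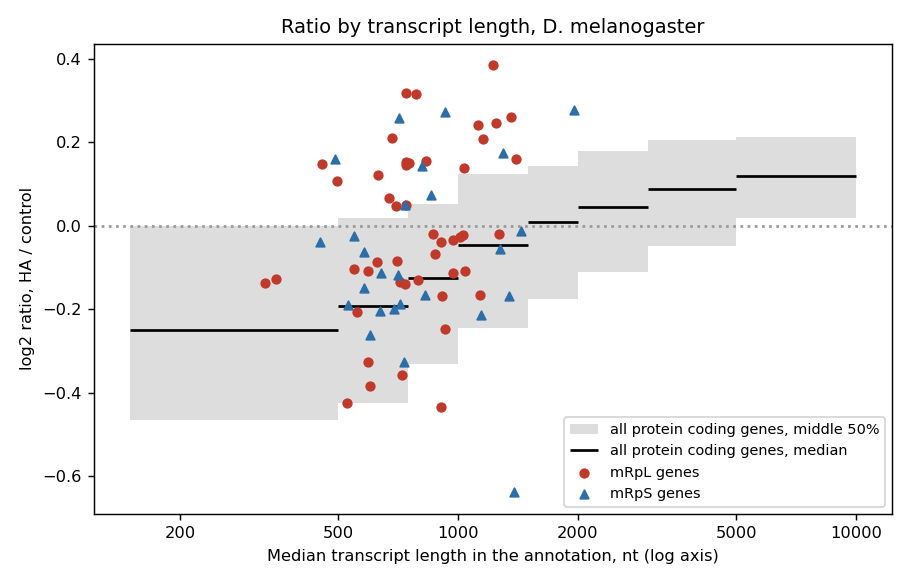
Log2 ratio of HA over control food against median annotated transcript length (nt, log axis) for mRpL genes (circles) and mRpS genes (triangles), over the median (black lines) and the middle 50% (grey) of all protein coding genes in each length bin, with the first and last bins cut at the plotted range. The black lines climb from left to right, and 53 of the 73 members lie above the line of their bin, while against a ratio of 0 only 28 do.

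Besides the 73 genes, 3 further genes of mitoribosomal proteins were looked up by other symbols, and no full search for such genes was made. *tko* (technical knockout) encodes the counterpart of bacterial S12, at the site where codons are read, and is known for the seizures of its mutants under mechanical shock. It had 171.8 FPKM on HA food and 248.0 FPKM on control food, a log2 ratio of -0.53 that stood between those of *mRpS5* and *mRpL47*. *bonsai*, the counterpart of bacterial S15, had 77.7 FPKM on HA food and 65.01 FPKM on control food (0.26). *CRIF*, whose mammalian counterpart is a large subunit protein at the peptide exit, had 55.7 FPKM on HA food and 48.4 FPKM on control food (0.20). With these 3 added, 30 of 76 genes (39.5%) were higher on HA food, 1 (1.32%) past the limit upwards and 8 (10.5%) downwards. Over all genes these shares were 50.4%, 7.39% and 16.9%.

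The genes that serve the mitoribosome had ratios mostly above 0. A list of 12 genes, mostly of translation factors, included *mTTF*, *mTerf3* (0.30) and *mTerf5* (0.05), which are named as transcription termination factors. Of the 12 genes 9 were higher on HA food, with a median log2 ratio of 0.12, 0 past the limit upwards and 1 downwards. The shares of all genes were 50.4% higher, 7.39% past the limit upwards and 16.9% downwards. *mEFTu1*, which brings tRNA to the ribosome, had 102.7 FPKM on HA food and 92.3 FPKM on control food (0.15), and *mEFG1*, which moves the ribosome along, had 15.2 FPKM on HA food and 12.4 FPKM on control food (0.30). *mTTF*, which ends transcription on the mitochondrial genome, was the 1 past the limit, with 19.1 FPKM on HA food and 24.7 FPKM on control food (-0.37). Of 15 genes for mitochondrial tRNA synthetases 13 were higher on HA food, with a median of 0.12, and the 1 past the limit upwards was *AsnRS-m*, with 6.37 FPKM on HA food and 4.43 FPKM on control food (0.51). Of 8 genes that copy, transcribe or stabilise the mitochondrial genome and its messages 7 were higher, with a median of 0.22. Among them *bsf*, which protects mitochondrial messages, had 28.5 FPKM on HA food and 22.5 FPKM on control food (0.34), and *TFAM*, which packs the genome, had 145.2 FPKM on HA food and 153.8 FPKM on control food (-0.08). The transcripts of these lists are longer than those of the members, with median lengths of 1619, 2337 and 2674 nt, and relative to genes of like length the medians were 0.08, 0.08 and 0.21.

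Nuclear genes of the respiratory chain, the ATP synthase included, were picked by patterns of their symbols. No symbol with a dot can match these, so the list may be incomplete. The 64 genes of it that passed the minimum had a median length of 736 nt and were about as short as the members. Their median log2 ratio was -0.09, and relative to genes of like length it was 0.03. Of the 64 genes 19 were higher on HA food, 1 past the limit upwards and 8 downwards. Over all genes 50.4% were higher, 7.39% past the limit upwards and 16.9% downwards. The 8 include *COX4L* and *UQCR-11L*, with means of 1.59 and 1.46 FPKM. With a minimum of 5 FPKM 6 of 62 genes were past the limit downwards. *ND-15*, a subunit of complex I, had 508.9 FPKM on HA food and 731.3 FPKM on control food (-0.52). This was the lowest ratio among genes of the list with a mean of at least 5 FPKM. The genes of cytosolic ribosomal proteins are as short, at a median of 707 nt, but had a median ratio of 0.13 over 86 genes. Of these 58 were higher, 16 past the limit upwards and 3 downwards, beside 7.39% and 16.9% of all genes. Relative to genes of like length their median was 0.28, beside 0.09 in the members. On that scale 71 of the 86 were higher, 32 past the limit upwards and 2 downwards, beside 8.09% and 14.1% of all genes. *RpS12*, for which no transcript length was at hand, had no value on that scale and counts among the 86 as neither higher nor past the limit. *RpL3*, the cytosolic protein of the same family as *mRpL3*, had 1825 FPKM on HA food and 1304 FPKM on control food (0.49), the highest ratio of the list. Of the 86 genes 28 were lower on HA food, among them *RpL15* (-0.52) and *RpL29* (-0.51). The difference between the cytosolic and the mitochondrial set was not tested, as there is 1 value per food.

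The 13 protein coding genes of the mitochondrial genome, whose messages these ribosomes translate, were listed in part at 0. *mt:CoI* was listed at 0 on both foods, and *mt:ATPase6*, *mt:ATPase8* and *mt:CoIII* were listed at 0 on control food and at 3236, 7.72 and 14290 FPKM on HA food, so no fold is given for them. For the 9 others the median log2 ratio was -0.17, with 2 higher on HA food, 1 past the limit upwards and 3 downwards. In all genes the shares were 50.4% higher, 7.39% past the limit upwards and 16.9% downwards. *mt:CoII*, a subunit of cytochrome c oxidase, had 7238 FPKM on HA food and 7491 FPKM on control food (-0.05), and *mt:Cyt-b*, of complex III, had 2139 FPKM on HA food and 1878 FPKM on control food (0.19). The entries at 0 take part in the summed FPKM of each food, and with it in the rescaling to equal sums above.

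**Figure D5:**
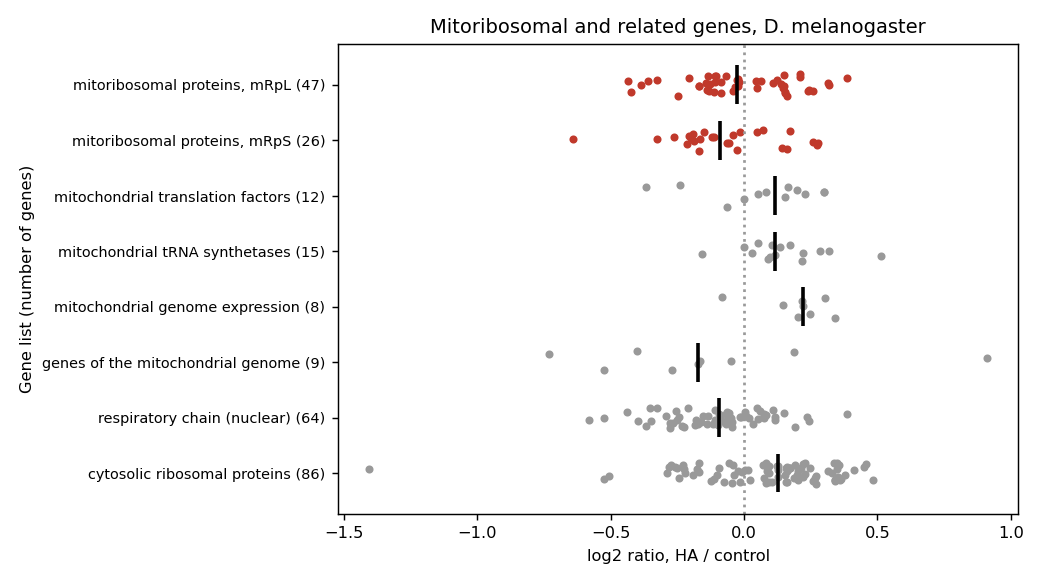
Log2 ratio of HA over control food for single genes (points) and the median (black bar) of mRpL, mRpS and 6 related gene lists in *D. melanogaster*, over genes with a mean of at least 1 FPKM that were listed above 0 on both foods. The list of translation factors includes *mTTF*, *mTerf3* and *mTerf5*, and that of the respiratory chain includes the ATP synthase. The mRpL and mRpS medians of -0.03 and -0.09 lie left of 0 on this scale. So do those of the respiratory chain (-0.09) and of the mitochondrial genome (-0.17), while those of the other lists lie right of 0. Under equal summed FPKM the mRpL median is 0.03 and that of all genes 0.05. Relative to genes of like length the mRpL, mRpS, respiratory chain and cytosolic ribosomal protein medians are 0.11, 0.06, 0.03 and 0.28.

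The markers of the tissues that could shift such levels in a whole female were present in both groups. Genes of the eggshell and yolk list and of the muscle list went different ways. Eggshell and yolk genes summed to 38273 FPKM on HA food and 38612 FPKM on control food over 19 genes, a sum in which the yolk genes *Yp1*, *Yp2* and *Yp3* weigh most, and 1 of the 19 was past the limit upwards and 5 downwards. The chorion genes *Cp16*, *Cp18* and *Cp19*, of the outer eggshell, stood at 0.383, 0.370 and 0.376 of their control values, while *Cp15* was 1.57-fold higher on HA food. Muscle genes summed to 11952 FPKM on HA food and 12369 FPKM on control food over 16 genes, with 0 past the limit upwards and 2 downwards. Those 2 were the troponin C genes *TpnC4* (log2 ratio -0.67) and *TpnC41C* (-0.48), and the actin genes *Act57B* (0.32) and *Act79B* (0.30) went the other way. The 13 germline genes past the minimum, with a median length of 2786.5 nt, had a median log2 ratio of 0.21. Of these 11 were higher on HA food, 4 past the limit upwards and 1 downwards. Over all genes 50.4% were higher, 7.39% past the limit upwards and 16.9% downwards. Relative to genes of like length the germline median was 0.16, with 1 gene past the limit upwards and 1 downwards. Genes of testis and male accessory gland summed to 1.90 FPKM on HA food and 1.65 FPKM on control food over 18 genes, and the highest single value was 0.602 FPKM, in flies labelled female. In whole flies, fewer cells of a type and less RNA per cell cannot be told apart, and the part of tissue composition in the members' ratios was not tested.

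In *D. simulans* the 1 member listed by name was *mRpS11*, at 8360911 to 8361974 on chromosome 3R of that species' genome. It had 54.8 FPKM on HA food and 53.3 FPKM on control food, a log2 ratio of 0.04. So 1 of 1 member was higher on HA food, beside 31.3% of all 9352 genes past the minimum, and it was past the limit in neither direction, beside 4.17% of all genes upwards and 23.5% downwards. The median ratio of all genes of this species was -0.12, and relative to it *mRpS11* stood at 0.16. Under equal summed FPKM *mRpS11* stood at -0.05 and the median of all genes at -0.21, so that it again stood 0.16 above them. The *mRpS11* of *D. melanogaster*, at -0.33, was just past the limit downwards, with its own table's median at 0.00. Under equal summed FPKM it stood at -0.27, inside the limit, with the median of all genes at 0.05. Relative to genes of like length it stood at -0.14. The difference between the species was not tested, and each table was normalized on its own. In *D. sechellia* 0 members are listed by name, and its mitoribosomal protein genes were not analysed here. Male markers summed to 0.535 FPKM on HA food and 0.695 FPKM on control food in *D. simulans*, and to 0.0738 FPKM on HA food and 0.0447 FPKM on control food in *D. sechellia*. Reads were 65 nt long in *D. sechellia* and 51 nt in the other species, and an effect of read length cannot be told apart from one of species.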

How the data were processed

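Total RNA of whole females was poly-A selected and sequenced as single-end reads. Per the labels and the methods of the study, the authors ran FastQC on the reads, Bowtie2 against the genome of each species, and Cuffdiff once per species; versions are not given in the sources used here. The deposited FPKM values are Cuffdiff's estimates, 1 per food and species, pooled over 3 libraries, so the counts behind a value, and its precision, cannot be had from the files; the study lists reads per library, which were not used here. The tables also hold the authors' own fold changes, test statistics, p-values and q-values, which were not used.

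The members and gene lists were chosen with earlier results of these data known. Ratios were computed on log2(FPKM + 0.1) over genes with a mean of at least 1 FPKM, and no test was made. Genes named are the 10 highest and 10 lowest members by ratio, the 5 highest and 5 lowest by mean level, and *tko*, *bonsai* and *CRIF*; the gene listed elsewhere as DAP3 is *mRpS29* in the table. *mRpL53*, *mRpS18A*, *mRpS18C* and the genes named from other lists were picked once their values were known, as was the grouping by descent. Positions, transcript lengths (median over a gene's annotated transcripts) and exon overlaps come from the Ensembl gene annotation of BDGP6, where 72 of 73 members were found by identifier and 1 by symbol, and all 73 lay inside the locus of the table. Alternatives were pseudocounts of 0 and 1 FPKM, no minimum and a minimum of 5 FPKM, centring on the median of all genes, equal summed FPKM, limits of 1.1-fold and 1.5-fold, members with a locus of their own, the 3 added genes, and, chosen after seeing the data, centring by transcript length and leaving out *mRpS5*. The summary was tested on simulated data. Promoter and protein sequences were not used here. Computations used Python 3.11.15 with pandas 2.3.3 and NumPy 2.4.6, and matplotlib 3.10.9 for figures.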

Additional observations from a re-analysis of the deposited data

How the results depend on the processing

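No paired analysis was possible because the files hold 1 value per food, pooled over the 3 libraries, and for the same reason no library could be left out in turn. For the *D. melanogaster* members, pseudocounts of 0 and 1 FPKM, no minimum, a minimum of 5 FPKM, centring on the median of all genes and leaving out *mRpS5* (chosen after seeing the data) kept the median log2 ratio within 0.1 of -0.04 and every count within 1.5 times of 28 higher on HA food, 1 past the limit upwards and 7 downwards. Adding *tko*, *bonsai* and *CRIF* did so too. Under equal summed FPKM 5 members were past the limit upwards and 4 downwards (11.4% and 13.8% of all genes), and the median was 0.01, with that of all genes at 0.05. With a limit of 1.1-fold the counts were 21 upwards and 22 downwards (28.8% and 30.1%, beside 28.3% and 32.3% of all genes), and with one of 1.5-fold they were 0 and 1 (0 and 1.37%, beside 1.93% and 6.06%). Among the 30 members with a locus of their own 12 (40%) were higher, 0 were past the limit upwards and 4 (13.3%) downwards. These counts are fewer by construction, and the shares of all genes were 50.4%, 7.39% and 16.9%. Centred on genes of like transcript length, which was chosen after seeing the data, the median was 0.091 (0.106 in the large and 0.058 in the small subunit), 53 were higher, 11 were past the limit upwards and 1 downwards (8.09% and 14.1% of all genes); the cause was not tested. *mRpS11* of *D. simulans* stood at 0.16 after centring on the median of all genes. The study lists reads per library, but the pooled values in the files give no counts, so the counting error of a value could not be computed.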

Other observations

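Of all neighbouring members, 2 pairs lie within 50 kb of each other. *mRpL3* and *mRpS30* on chromosome X, 23383 bases apart, had log2 ratios of 0.25 and 0.28. *mRpL24* and *mRpL28* on chromosome 2L, 28614 bases apart, had ratios of -0.07 and 0.21. *mRpL28*, named for a bacterial large subunit protein, had 65.3 FPKM on HA food and 56.5 FPKM on control food, and *mRpL24* had 61.2 FPKM on HA food and 64.2 FPKM on control food.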
